A study of Homo sapiens with 9 samples.

Results

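Laminin chain genes were followed in MDA-MB-231-D3H2LN, a human breast cancer cell line, in which the Notch ligand gene JAG1 had been knocked out. The members are the rows of the deposited count tables named LAMA1, LAMA3, LAMA4, LAMA5, LAMB1, LAMB2, LAMB3 and LAMC1, which are 8 of 56505 rows and 8 of the 12 laminin chain genes listed there. Bulk RNA sequencing covered 3 libraries each of JAG1 knockout clone 2, JAG1 knockout clone 1 and wild-type cells. All 9 libraries came from the same line, grown in high-glucose DMEM with 10% FBS. Per the labels, both clones were made with Cas9 protein and guide RNAs against separate places of one JAG1 exon and were homozygous; the wild-type cells are labelled as control and as expressing JAG1. Each clone grew from a single cell, so a difference from wild type describes that one line, and a difference between the clones is one between 2 lines. The labels do not say that replicates came from separate cultures, so a p-value here covers the variation from library to library alone, and part of that may be technical.

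Laminins are secreted heterotrimers of an alpha, a beta and a gamma chain and are the main scaffold proteins of basement membranes. The alpha chain carries the globular domains that bind integrins and dystroglycan on the cell surface, while the beta and gamma chains take part in the coiled coil and the polymer. In the breast, LAMA3 and LAMB3 encode chains of the laminin that anchors epithelial cells at hemidesmosomes, LAMA5 and LAMA1 chains of other epithelial laminins, and LAMA4 a chain best known from vessel walls, fat and muscle. LAMB1, LAMB2 and LAMC1 encode the partner chains shared by many laminins.

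Each library held between 16890890 and 22456164 counts. The 16921 genes that passed the filter on low counts included all 8 members. JAG1 itself had 76.1, 68.1 and 56.5 CPM (counts scaled to library size) in clone 2, 110, 80.8 and 92.3 CPM in clone 1, and 246, 161 and 181 CPM in wild type, so every knockout library lay below every wild-type library. Its log2 change was −1.55 ± 0.18 (SE) in clone 2 (adjusted p 0.00013, edgeR) and −1.05 ± 0.18 in clone 1 (adjusted p 0.00312). A count over the whole gene does not show the edit itself. The 5 epithelial markers (KRT7, KRT8, KRT18, KRT19, EPCAM) were above 1 CPM in every group and summed to 1200 to 1440 CPM in clone 2, 622 to 777 CPM in clone 1 and 1020 to 1160 CPM in wild type. The 3 mesenchymal markers (VIM, CD44, ZEB1) summed to 2790 to 3570, 1800 to 2360 and 1870 to 2720 CPM in the same order of groups. Fibroblast markers summed to 17.3 to 21.6 CPM in clone 2, 27.7 to 32.2 CPM in clone 1 and 30.7 to 63.7 CPM in wild type, endothelial markers to 3.84 to 5.28, 5.23 to 7.80 and 4.76 to 5.42 CPM, and leukocyte markers to at most 0.436, 2.38 and 4.53 CPM. CD3E had 0 counts in all groups, as did CDH5 in clone 2 and wild type, DCN in clone 2 and LYZ in clone 2. The part of these marker levels in the laminin results was not tested. In bulk RNA, fewer cells of a kind and less RNA per cell cannot be told apart.

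Set side by side per length, with the exon lengths of the tables, each beta and gamma chain member stood above each alpha chain member in every group. On the RPKM scale (CPM per kilobase of exon), the alpha chain genes summed to 3.25 ± 0.24 in clone 2, 7.33 ± 1.36 in clone 1 and 8.61 ± 2.82 in wild type, the beta chain genes to 132 ± 11.02, 142 ± 5.70 and 111 ± 8.41, and LAMC1 alone stood at 18.7 ± 4.10, 15.2 ± 1.23 and 20.3 ± 1.83 (SD, n = 3 each). In clone 2 the order of levels was LAMB3 (69.5 RPKM), LAMB1 (41.5), LAMB2 (21.4), LAMC1 (18.7), LAMA3 (2.34), LAMA5 (0.487), LAMA4 (0.356) and LAMA1 (0.0653), and the libraries of LAMB2 and LAMC1 and of LAMA5 and LAMA4 overlapped. In clone 1 the order was LAMB3 (65.1 RPKM), LAMB1 (43.2), LAMB2 (34.2), LAMC1 (15.2), LAMA3 (5.87), LAMA5 (1.18), LAMA4 (0.227) and LAMA1 (0.0537), with no overlap between neighbours. In wild type the order was LAMB1 (41.2 RPKM), LAMB3 (37.4), LAMB2 (32.3), LAMC1 (20.3), LAMA5 (4.22), LAMA3 (3.66), LAMA4 (0.627) and LAMA1 (0.105), where the libraries of LAMB1 and LAMB3, of LAMB3 and LAMB2, and of LAMA5 and LAMA3 overlapped. On this scale LAMB3 was thus the highest laminin gene of the members in both clones, and LAMA3 the highest alpha chain gene. These orders depend on the lengths assigned. In CPM, not divided by length, LAMB1 averaged 338 in clone 2 and 352 in clone 1, above LAMB3 at 326 and 305. Their libraries overlapped in clone 2 and not in clone 1. The orders also depend on the length assigned to LAMA3. With the 5671 bases of its longest downstream transcript in place of 13522 bases, LAMA3 stood at 5.57 ± 0.29 RPKM in clone 2, 13.99 ± 2.72 RPKM in clone 1 and 8.71 ± 2.25 RPKM in wild type (SD, n = 3 each). The other members kept their exon lengths, such as 14291 bases for LAMA5, whose longest transcript has 11426 bases. On these unlike lengths LAMA3 lay above LAMA5 in wild type with no overlap. This does not hold with the 11426 bases of the longest LAMA5 transcript. The highest wild-type LAMA5 library (91.8 CPM) then lies above the lowest LAMA3 library (7.20 RPKM), so the 2 genes overlap. In clone 1 the LAMA3 libraries (12.1 to 17.1 RPKM) then overlapped those of LAMC1 (14.5 to 16.6 RPKM).

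The main changes against wild type were a fall of LAMA5 and a rise of LAMB3 in each clone, a fall of LAMA4 in clone 1, and a LAMA3 level that was lower in clone 2 and higher in clone 1. In clone 2 against wild type, 3 of 8 members were called at an adjusted p under 0.05 (LAMB3 higher, LAMA3 and LAMA5 lower), where 5.96% of all tested genes were called (3.21% higher and 2.75% lower). In clone 1 against wild type, 4 of 8 were called (LAMA3 and LAMB3 higher, LAMA4 and LAMA5 lower), where 5.51% of all tested genes were called (1.41% higher and 4.1% lower). In clone 2 against clone 1, 2 of 8 were called (LAMA3 and LAMB2, both lower), where 33.9% of all tested genes were called (19.8% higher and 14.1% lower). The count of 2 of 8 lies below that last share, so it is no result about the members as a set. The median log2 change of the 8 members was −0.62 in clone 2 and −0.17 in clone 1 against wild type and 0.02 between the clones, beside medians over all tested genes of 0.001, −0.016 and −0.008. Libraries did not overlap for 5 members in clone 2 against wild type (25.9% of all tested genes), for 6 in clone 1 against wild type (29.6%) and for 4 in clone 2 against clone 1 (47.4%). Both clones were set against the same wild-type libraries, so their changes share the error of those 3 libraries. With the replicate number as a block, 5 members and 2699 of all tested genes were called in clone 2 against wild type, compared with 1008 genes without it, and LAMA4 and LAMB2 were the members added. The count of members called fell to 1 in clone 2 against wild type without wild-type replicate 2 or clone 2 replicate 3. In clone 1 against wild type it fell to 2 without wild-type replicate 2, wild-type replicate 3 or clone 1 replicate 2, to 1 without clone 1 replicate 1 and to 0 without clone 1 replicate 3. Between the clones it fell to 1 without clone 1 replicate 3 or clone 2 replicate 3.

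**Figure D1:**
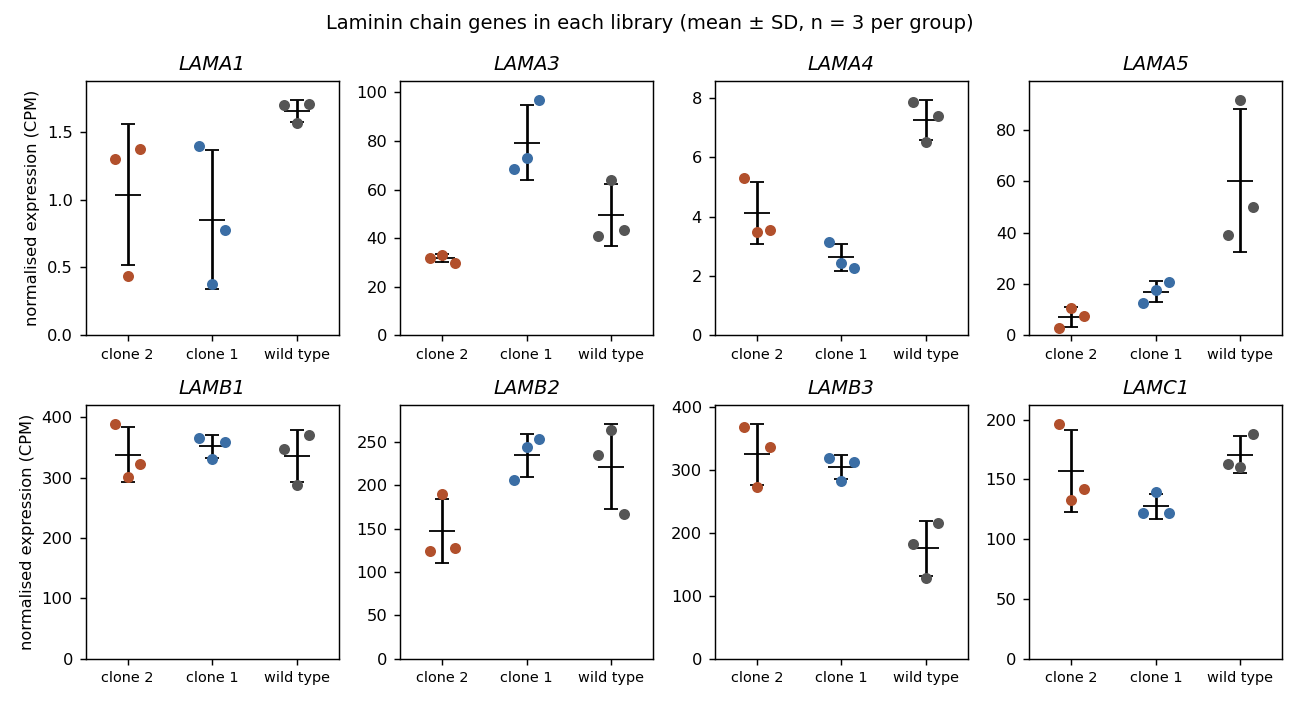
Normalised expression in CPM (vertical axes, linear from 0) of the 8 laminin chain genes in clone 2, clone 1 and wild type; points are libraries, dashes means and bars SDs (n = 3). LAMA5 lies at 2.78 to 10.6 CPM in clone 2, 12.5 to 20.7 CPM in clone 1 and 39.2 to 91.8 CPM in wild type, while LAMB1 overlaps in all groups.

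**Figure D2:**
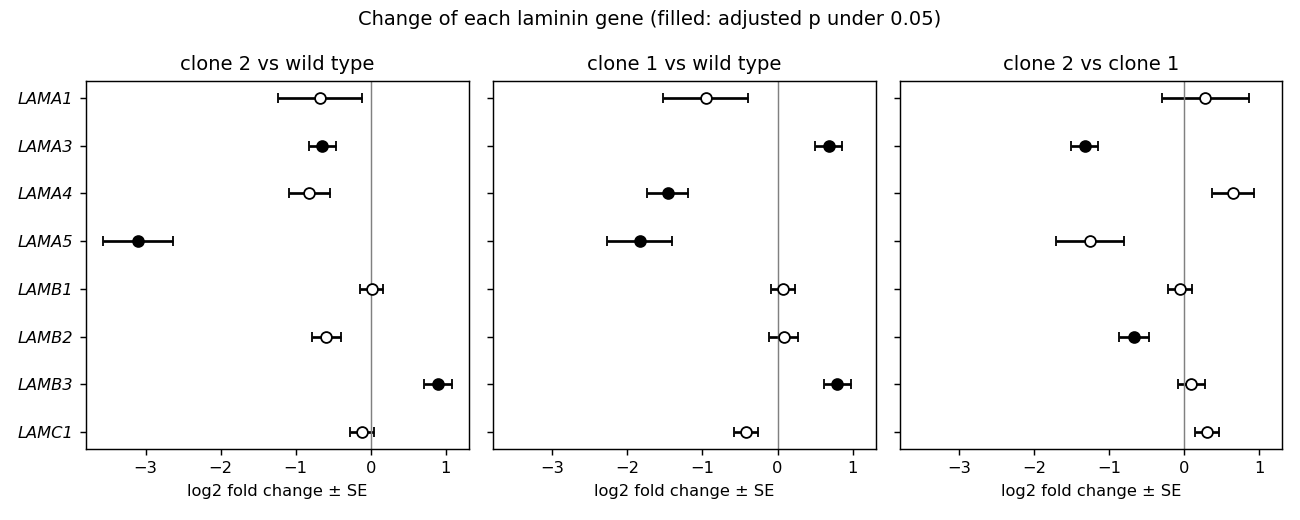
Log2 fold change with its SE (horizontal axis) of each laminin chain gene in clone 2 against wild type, clone 1 against wild type and clone 2 against clone 1; filled points have an adjusted p under 0.05 (edgeR). Against wild type, LAMA3 lies at −0.65 in clone 2 and 0.68 in clone 1, and LAMA5 at −3.10 in clone 2 and −1.84 in clone 1.

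LAMA5 encodes the alpha5 chain of widespread epithelial and vascular laminins. It lies on the minus strand at chr20:62307955-62367312 (GRCh38, from the tables), with 14291 bases of exon. It had 2.78, 10.6 and 7.497 CPM in clone 2, 12.5, 17.5 and 20.7 CPM in clone 1, and 39.2, 91.8 and 49.9 CPM in wild type. All knockout libraries lay below all wild-type libraries, and all clone 2 libraries below all clone 1 libraries, with no overlap between any of the 3 groups. The log2 change was −3.10 ± 0.46 (SE) in clone 2, an 8.56-fold lower level (adjusted p 0.00664, edgeR), and −1.84 ± 0.43 in clone 1 (adjusted p 0.0415). Between the clones it was −1.26 ± 0.45 and did not pass (adjusted p 0.0557). The clone 2 call was lost without clone 2 replicate 3 (adjusted p 0.0961). The clone 1 call was lost without wild-type replicates 2 or 3 (0.0817 and 0.156), without clone 1 replicates 1, 2 or 3 (0.0740, 0.104 and 0.109), without clone 2 replicate 3 (0.104) and with no filter on low counts (0.154). The difference between the clones passed without wild-type replicate 2 (adjusted p 0.0199), clone 1 replicate 1 (0.0284) or clone 2 replicate 2 (0.0338), in a fit of those 6 libraries alone (0.0198), and with a GC and length correction (log2 −1.58, adjusted p 0.00464; −1.66 and 5.58e-07 with the block too).

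The 30 tested genes within 1 Mb of LAMA5 had a median log2 change of 0.22 in clone 2 and −0.16 in clone 1 against wild type, and the 444 other tested genes of chromosome 20 had medians of 0.08 and −0.30. LAMA5 was therefore below its neighbourhood in both clones. On the opposite strand its exons overlap ADRM1 over 728 bases (5.09% of the LAMA5 exon length) and LAMA5-AS1 over 386 bases (2.70%), and since the strand setting of the counting is not given in the sources used here, reads from these stretches cannot be told apart. The promoter of LAMA5 is shown because its member had the largest fold change of the 8 in either clone; it covers 250 bases before to 50 after the RefSeq start (GRCh38.p14, chr20:62367263-62367562, minus strand, read 5′ to 3′). Capitals mark CAGGTG, an E-box bound by the repressors ZEB and SNAI, which with its reverse complement CACCTG was found in 20.6% of all 35116 RefSeq windows of this length.
LAMA5: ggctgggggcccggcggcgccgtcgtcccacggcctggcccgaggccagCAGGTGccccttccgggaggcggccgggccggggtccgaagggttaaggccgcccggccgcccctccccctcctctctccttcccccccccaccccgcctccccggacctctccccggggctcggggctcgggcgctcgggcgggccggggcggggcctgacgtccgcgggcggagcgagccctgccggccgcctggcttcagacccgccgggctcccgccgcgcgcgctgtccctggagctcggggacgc

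The E-box begins 201 bases before the start, and the window held neither TGANTCA, the AP-1 motif, nor TGGGAA or its reverse complement TTCCCA, the core bound by the Notch effector RBPJ. TGANTCA was found in 7.7% and the RBPJ core in 24.0% of all windows. At 82.7%, its GC content was above that of 99.1% of all windows. These letters are a description of the window and carry no measurement of binding.

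LAMA3 encodes the alpha3 chain, the alpha subunit of the laminin beneath hemidesmosomes. It lies on the plus strand at chr18:23689443-23955066, and GENCODE 29 lists transcripts from several starts; the longest from the upstream end of the gene has 10661 bases, and the longest from the downstream start used below has 5671 bases. A count per gene does not separate the starts. LAMA3 had 31.8, 33.2 and 29.9 CPM in clone 2, 68.3, 72.8 and 97.0 CPM in clone 1, and 40.9, 64.1 and 43.3 CPM in wild type. The 3 groups did not overlap: every clone 2 library lay below every wild-type library, and every clone 1 library above. The log2 change was −0.65 ± 0.18 (SE) in clone 2 (adjusted p 0.0454, edgeR) and 0.68 ± 0.18 in clone 1 (adjusted p 0.0374). Clone 2 against clone 1 gave −1.33 ± 0.18, a 2.51-fold lower level (adjusted p 0.000122), and this call held whichever library was left out, with an adjusted p of at most 0.00133. The clone 2 call against wild type was lost without wild-type replicate 2 (adjusted p 0.224, log2 change −0.44), clone 1 replicates 1 or 2 (0.0505 and 0.0676) or clone 2 replicates 1, 2 or 3 (0.0666, 0.0538 and 0.164), with limma-voom (0.0541) and in a fit of only those 6 libraries (0.0781). The clone 1 call was lost without wild-type replicates 1 or 3 (adjusted p 0.0986 and 0.156) or clone 1 replicates 1, 2 or 3 (0.0521, 0.0787 and 0.211).

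The RefSeq window of LAMA3 lies at its downstream start (GRCh38.p14, chr18:23872770-23873069, plus strand) and is shown for comparison with that of LAMB3, since both chains belong to one laminin. Capitals mark TGACTCA, beginning 125 bases before the start, and a run in which CACCTG, beginning 73 bases before it, overlaps by its last 2 letters with TGAGTCA, beginning 69 bases before it.
LAMA3: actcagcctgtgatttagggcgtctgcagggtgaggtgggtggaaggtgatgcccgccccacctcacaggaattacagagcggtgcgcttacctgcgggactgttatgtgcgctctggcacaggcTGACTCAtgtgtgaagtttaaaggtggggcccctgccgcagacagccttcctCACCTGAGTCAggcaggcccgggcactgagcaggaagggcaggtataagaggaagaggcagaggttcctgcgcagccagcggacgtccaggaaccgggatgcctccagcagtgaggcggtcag

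Both 7-letter matches are AP-1 motifs of the form TGANTCA, and the 6-letter one is the reverse complement of CAGGTG. The 13 tested genes within 1 Mb of LAMA3 had a median log2 change of −0.01 in clone 2 and −0.09 in clone 1 against wild type and 0.02 between the clones. Over the 9 libraries, the tested genes whose log2 CPM followed LAMA3 most closely were ANKRD29 (Pearson r 0.988), COMMD8 (0.979) and SLCO4A1 (0.978). ANKRD29 averaged 10.6 CPM in clone 2, 20.6 CPM in clone 1 and 14.99 CPM in wild type. These are the highest of 14602 correlations over 9 libraries that share their groups and depth, and are given as a description.

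LAMA4 encodes the alpha4 chain, and its level was low in every library. It lies on the minus strand at chr6:112108760-112254939 and had 5.32, 3.49 and 3.56 CPM in clone 2, 3.16, 2.43 and 2.28 CPM in clone 1, and 7.87, 6.52 and 7.39 CPM in wild type. Both clones lay below wild type in every library, and clone 1 below clone 2. LAMA4 fell by 1.47 ± 0.28 log2 units in clone 1 (adjusted p 0.00718, edgeR), which did not hold without clone 1 replicate 3 (0.0528). In clone 2 the log2 change was −0.82 ± 0.27 and did not pass (adjusted p 0.0801), whereas it passed with the replicate block (−0.84, adjusted p 0.0306), with DESeq2 (0.0455) and without clone 2 replicate 1 (0.0426). Clone 2 against clone 1 gave 0.65 ± 0.28 (adjusted p 0.0874). The values rest on 233 counts in clone 2, 153 in clone 1 and 463 in wild type. The closest genes over the 9 libraries were PRMT6 (r 0.968), INHBA (0.967), a subunit of the signalling protein activin, at 11.4 CPM in clone 2, 5.83 CPM in clone 1 and 21.5 CPM in wild type, and ZNF43 (0.963).

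LAMA1 encodes the alpha1 chain, known from embryonic basement membranes, and was the lowest member. It lies on the minus strand at chr18:6941744-7117814 and had 1.30, 0.436 and 1.38 CPM in clone 2, 1.40, 0.380 and 0.780 CPM in clone 1, and 1.70, 1.57 and 1.71 CPM in wild type, from 59, 49 and 106 counts in all. Every knockout library lay below every wild-type library, while the clones overlapped. The change did not pass in clone 2 (log2 −0.68 ± 0.56, adjusted p 0.488, edgeR), in clone 1 (−0.96 ± 0.57, adjusted p 0.336) or between the clones (0.28 ± 0.58, adjusted p 0.737). An uncharacterised gene on the opposite strand, RP11-781P6.1, overlaps 10.3% of its exon length.

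LAMB3 encodes the beta3 chain, the partner of alpha3 in the hemidesmosomal laminin. It lies on the minus strand at chr1:209614870-209652466. LAMB3 had 368, 273 and 336 CPM in clone 2, 320, 283 and 313 CPM in clone 1, and 182, 129 and 215 CPM in wild type. Every knockout library lay above every wild-type library, and the clones overlapped. The log2 change was 0.89 ± 0.18 in clone 2 (adjusted p 0.0118, edgeR) and 0.80 ± 0.18 in clone 1 (adjusted p 0.0209), and 0.09 ± 0.18 between the clones (adjusted p 0.717). The clone 2 call was lost without wild-type replicate 2 (adjusted p 0.0663), and the clone 1 call without wild-type replicate 2 (0.0642), clone 1 replicate 1 (0.0725) or clone 1 replicate 3 (0.0957). In clone 2, LAMB3 was thus higher and LAMA3 lower than in wild type, while in clone 1 both were higher.

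RefSeq lists 3 start windows for LAMB3, of which the outermost (GRCh38.p14, chr1:209652376-209652675, minus strand) and the innermost (chr1:209651325-209651624, minus strand) hold a match and are shown. Capitals mark CAGGTG beginning 218 bases before the outer start, and TGACTCA, an AP-1 motif, beginning 67 bases before the inner start.
LAMB3 outer: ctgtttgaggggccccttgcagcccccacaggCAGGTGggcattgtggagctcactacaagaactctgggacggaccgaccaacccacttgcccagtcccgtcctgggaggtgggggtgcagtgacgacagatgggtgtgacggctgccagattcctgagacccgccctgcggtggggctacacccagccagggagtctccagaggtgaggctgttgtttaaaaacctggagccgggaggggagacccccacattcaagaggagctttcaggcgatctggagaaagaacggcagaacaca
LAMB3 inner: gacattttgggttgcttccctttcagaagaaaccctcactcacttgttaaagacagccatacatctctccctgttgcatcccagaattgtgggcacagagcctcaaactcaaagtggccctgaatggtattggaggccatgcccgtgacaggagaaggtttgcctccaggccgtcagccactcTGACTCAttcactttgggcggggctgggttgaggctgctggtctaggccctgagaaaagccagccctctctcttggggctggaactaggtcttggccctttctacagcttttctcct

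An AP-1 motif and the E-box thus each lie in a listed window of both LAMA3 and LAMB3, and the RBPJ core lies in none of either. For LAMB3 each of these matches is in 1 of its 3 windows, while the shares over all windows given above are per window. Of the 7 members with a RefSeq window, LAMB2 alone held the RBPJ core, as TTCCCA at 49 and 11 bases before its start; LAMA4, LAMB1 and LAMC1 held none of the 3 motifs. The 7 tested genes within 1 Mb of LAMB3 had a median log2 change of 0.09 in clone 2 and 0.14 in clone 1 against wild type. Among the closest genes to LAMB3 over the 9 libraries were ST3GAL1 (r 0.967), a sialyltransferase, at 67.2 CPM in clone 2, 65.9 CPM in clone 1 and 41.7 CPM in wild type, and PIGW (0.956). The closest to LAMA5 were SLC12A8 (0.969), UNC5C (0.967) and VIPR1 (0.964), and VIPR1 averaged 3.58 CPM in clone 2, 7.33 CPM in clone 1 and 26.3 CPM in wild type. Between the members themselves, the correlations largest in size were −0.891 for LAMA5 and LAMB3, 0.804 for LAMA4 and LAMC1, and 0.791 for LAMA3 and LAMB2. They were picked from all member pairs over 9 libraries that share their groups, and are given as a description.

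LAMB2 encodes the beta2 chain, best known from the kidney filter and the neuromuscular junction. It lies on the minus strand at chr3:49121114-49133118 and had 124, 190 and 128 CPM in clone 2, 206, 244 and 253 CPM in clone 1, and 235, 263 and 167 CPM in wild type. Clone 2 lay below clone 1 in every library, clone 1 and wild type overlapped, and one wild-type library lay within the range of clone 2. LAMB2 was lower in clone 2 than in clone 1 by 0.67 ± 0.19 log2 units (adjusted p 0.0146, edgeR), which did not hold without clone 1 replicate 3 (0.0621) or clone 2 replicate 3 (0.0658). Against wild type the log2 change was −0.59 ± 0.19 in clone 2 (adjusted p 0.0777) and 0.08 ± 0.19 in clone 1 (adjusted p 0.846). The clone 2 change passed with the replicate block (−0.60, adjusted p 0.00883), with DESeq2 (0.0279), with no filter on low counts (0.00584), with a correction for GC content and length (0.0373) and without wild-type replicate 3 (0.0204) or clone 2 replicate 2 (0.0223). The 57 tested genes within 1 Mb had a median log2 change of 0.08 between the clones. The closest genes were TMEM9B-AS1 (r 0.988), NSUN5P2 (0.984) and ROBO3 (0.978), an axon guidance receptor at 17.2 CPM in clone 2, 29.9 CPM in clone 1 and 26.1 CPM in wild type.

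LAMB1 and LAMC1, which encode the beta1 and gamma1 chains of most laminins, did not pass the test in any comparison. LAMB1 (minus strand, chr7:107923799-108003255) had 389, 302 and 322 CPM in clone 2, 366, 330 and 359 CPM in clone 1, and 347, 288 and 371 CPM in wild type. The 3 groups overlapped throughout. Its log2 change was 0.01 in clone 2 (95% interval −0.374 to 0.393, adjusted p 0.98, edgeR) and 0.07 in clone 1 (−0.315 to 0.453, adjusted p 0.834), and −0.06 ± 0.16 between the clones (adjusted p 0.797). LAMC1 (plus strand, chr1:183023460-183145592) had 197, 133 and 142 CPM in clone 2, 122, 140 and 122 CPM in clone 1, and 163, 161 and 188 CPM in wild type. All clone 1 libraries lay below all wild-type libraries, while clone 2 overlapped both. The log2 change of LAMC1 was −0.12 ± 0.16 in clone 2 (adjusted p 0.698), −0.42 ± 0.16 in clone 1 (adjusted p 0.136) and 0.30 ± 0.16 between the clones (adjusted p 0.157).

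Within the alpha chain genes, LAMA3 held most of the summed level in each clone, whereas LAMA3 and LAMA5 held shares near each other in wild type. LAMA3 made up 76.2, 69.6 and 70.6% of the summed alpha RPKM in clone 2, 80.4, 78.7 and 80.9% in clone 1, and 46.1, 40.1 and 43.1% in wild type. LAMA5 made up 6.31, 21.1 and 16.8% in clone 2, 13.9, 17.9 and 16.4% in clone 1, and 41.8, 54.3 and 46.9% in wild type. Neither gene's shares overlapped between a clone and wild type. LAMA4 made up 11.1 ± 3.35% in clone 2, 3.21 ± 1.07% in clone 1 and 7.91 ± 2.87% in wild type, and LAMA1 2.07 ± 1.12%, 0.769 ± 0.558% and 1.31 ± 0.419% (SD, n = 3). Among the beta chain genes, LAMB3 made up 52.3 ± 4.31% in clone 2, 45.7 ± 1.77% in clone 1 and 33.5 ± 6.25% in wild type, LAMB1 31.2 ± 1.62%, 30.4 ± 0.917% and 37.1 ± 2.21%, and LAMB2 16.5 ± 5.31%, 24.0 ± 2.67% and 29.5 ± 8.45%. An exact two-sided permutation test gave p = 0.1 for LAMA3, LAMA5, LAMB1 and LAMB3 in each clone against wild type, which is the smallest p that 3 against 3 libraries allow (adjusted 0.191 over 21 comparisons). The same p was reached for LAMA4 in clone 1 against wild type, and for LAMA3 (lower) and LAMA4 (higher) in clone 2 against clone 1. The shares depend on the lengths assigned. Without division by length, LAMB1 held 41.5% and LAMB3 40.1% of the summed beta level in clone 2. In clone 1 they held 39.5 and 34.2%, and in wild type 45.7 and 23.8%. LAMA3 alone was also given the 5671 bases of its downstream transcript in place of 13522 bases. It then held 86.0% in clone 2, 90.5% in clone 1 and 64.3% in wild type, and LAMA5 held 7.43, 7.62 and 29.96%. The other alpha chain genes kept exon lengths above those of their longest transcripts. These are 15872 against 9657 bases for LAMA1, 11575 against 6547 for LAMA4 and 14291 against 11426 for LAMA5. Shares with transcript lengths for all alpha chain genes were not computed. In clone 2 the share of LAMA3 was higher although its own level was lower than in wild type, since the summed alpha level was lower still.

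**Figure D3:**
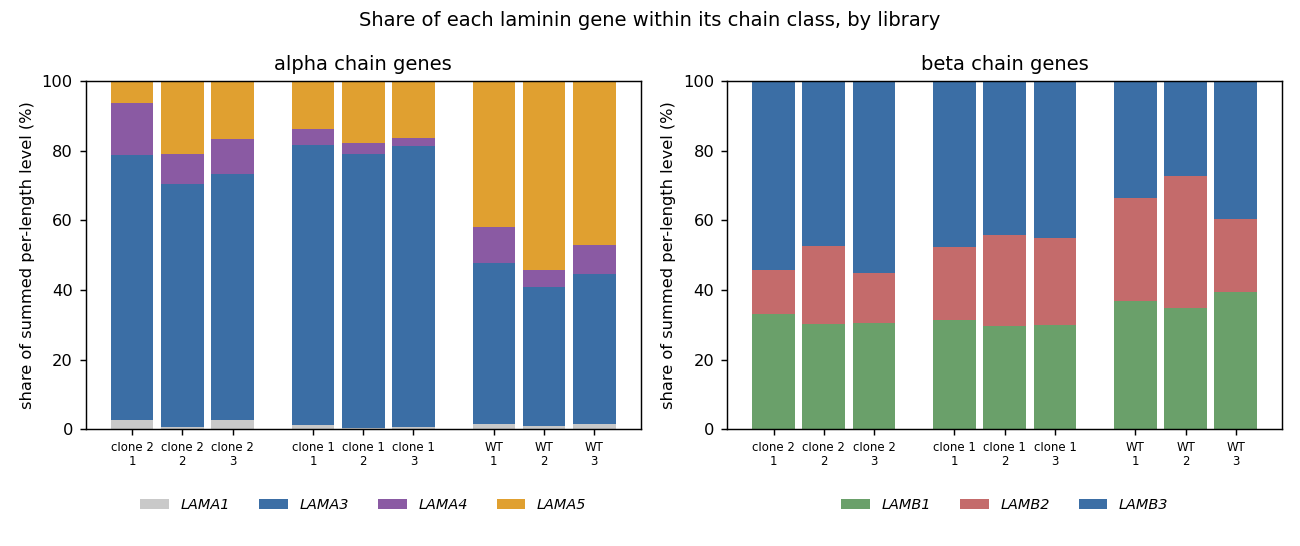
Stacked bars of the share (vertical axis, percent) of each gene in the summed RPKM of the alpha chain genes (left) and the beta chain genes (right), 1 bar per library of clone 2, clone 1 and wild type (WT). LAMA5 holds 6.31 to 21.1% of the alpha level in the 6 knockout libraries and 41.8 to 54.3% in the wild-type libraries.

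Of the other 4 laminin chain genes in the tables, 3 were tested and 0 were called in any comparison by edgeR, with 1, 1 and 0 of them at an unadjusted p under 0.05 in clone 2 against wild type, clone 1 against wild type and clone 2 against clone 1. Over all tested genes 5.96%, 5.51% and 33.9% were called in these comparisons. With 3 genes tested, 0 calls is no result about these chains. LAMA2, the alpha2 chain of muscle, averaged 1.16 CPM in clone 2, 1.34 CPM in clone 1 and 2.08 CPM in wild type. LAMC3 had 0 counts in clone 2, 0 in clone 1 and 12 in wild type.

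Of 14 cell-surface receptor genes, 0 were higher and 2 lower in clone 2 against wild type (ITGB4 and SDC2), 1 was higher and 1 lower in clone 1 against wild type (ITGA2 and ITGB4), and 2 were higher and 1 lower in clone 2 against clone 1 (ITGA3 and DAG1, and ITGA2). Over all tested genes 5.96%, 5.51% and 33.9% were called in these comparisons, so 3 of 14 between the clones lies below the background. The median log2 change of the list was 0.03, −0.11 and 0.06 in these comparisons, beside 0.001, −0.016 and −0.008 over all tested genes. ITGB4, the beta4 integrin subunit that binds the alpha3 laminin in hemidesmosomes, averaged 109 ± 14.95 CPM in clone 2, 137 ± 28.99 CPM in clone 1 and 251 ± 17.8 CPM in wild type (SD, n = 3). Every knockout library, at 93.6 to 123 CPM in clone 2 and 108 to 166 CPM in clone 1, lay below the wild-type libraries at 232 to 268 CPM. Its log2 change was −1.20 ± 0.17 in clone 2 (adjusted p 0.000706, edgeR) and −0.87 ± 0.17 in clone 1 (adjusted p 0.00745), and both calls held whichever library was left out. ITGA6, the alpha subunit that pairs with it, averaged 402 ± 116 CPM in clone 2, 326 ± 36.8 CPM in clone 1 and 404 ± 70.6 CPM in wild type and did not pass (adjusted p 0.987 and 0.382 against wild type). ITGA2, a collagen and laminin receptor subunit, averaged 242 ± 11.8 CPM in clone 2, 359 ± 12.9 CPM in clone 1 and 197 ± 21.6 CPM in wild type. ITGA2 rose by 0.87 ± 0.14 log2 units in clone 1 (adjusted p 0.00255) and was lower in clone 2 than in clone 1 by 0.57 ± 0.14 (adjusted p 0.00618), and both calls held whichever library was left out.

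SDC2, a heparan sulfate proteoglycan, averaged 54.2 ± 4.90 CPM in clone 2, 71.0 ± 17.1 CPM in clone 1 and 96.2 ± 14.1 CPM in wild type. It fell by 0.83 ± 0.18 log2 units in clone 2 (adjusted p 0.0135, edgeR), which did not hold without wild-type replicate 2 (0.0643) or clone 2 replicate 3 (0.0710). ITGA3, the alpha subunit of the main integrin for the alpha3 and alpha5 laminin chains, averaged 851 ± 128 CPM in clone 2, 601 ± 18.4 CPM in clone 1 and 808 ± 76.6 CPM in wild type, and was higher in clone 2 than in clone 1 (log2 0.50 ± 0.17, adjusted p 0.0294). That call was lost without clone 1 replicates 1, 2 or 3 (0.0789, 0.103 and 0.0696), without clone 2 replicates 1 or 3 (0.0656 and 0.0562) and with a GC and length correction (0.267). DAG1, dystroglycan, averaged 337 ± 48.4 CPM in clone 2, 251 ± 30.2 CPM in clone 1 and 311 ± 18.8 CPM in wild type; its difference between the clones (log2 0.43 ± 0.16, adjusted p 0.0454) passed in only 1 of the 9 fits that left out a library, failing without wild-type replicates 1, 2 or 3 (0.0516, 0.0771 and 0.0702), clone 1 replicates 1, 2 or 3 (0.170, 0.0624 and 0.101) and clone 2 replicates 1 or 3 (0.134 and 0.0858). It also failed with RLE size factors (0.0670), no filter (0.0893), only those 6 libraries (0.0691) and a GC and length correction (log2 0.23, adjusted p 0.279; 0.22 and 0.239 with the block too).

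Among 15 basement membrane partners, 14 of them tested, 1 was higher and 3 lower in clone 2 against wild type (COL17A1, and COL4A5, COL4A6 and COL18A1), 1 was higher and 2 lower in clone 1 against wild type (COL4A5, and COL18A1 and NTN4), and 0 were higher and 3 lower in clone 2 against clone 1 (COL4A5, COL4A6 and NID2). The background shares were again 5.96%, 5.51% and 33.9%, and 3 of 14 between the clones lies below the last. The median log2 change of the list was −0.61, −0.23 and −0.05, beside 0.001, −0.016 and −0.008 over all tested genes. COL4A5 and COL4A6, neighbouring genes of the X chromosome that encode type IV collagen chains, were not detected in clone 2. COL4A5 had 0 counts over the 3 clone 2 libraries, 641 over clone 1 (11.02 ± 2.01 CPM) and 318 over wild type (4.98 ± 0.950 CPM), which with a floor of 3 counts over the group put clone 2 at least 95.7-fold lower than wild type and at least 212-fold lower than clone 1. COL4A6 had 0 counts in clone 2, 104 in clone 1 and 33 in wild type, at least 9.93-fold lower than wild type and at least 34.4-fold lower than clone 1. No molecular identifiers are described for the reads, so these bounds cover counting error only. COL4A5 rose by 1.15 ± 0.27 log2 units in clone 1 (adjusted p 0.0263, edgeR), which did not hold without wild-type replicates 2 or 3 (0.0785 and 0.115) or clone 1 replicates 1, 2 or 3 (0.113, 0.0622 and 0.0971).

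COL18A1, the source of endostatin, averaged 39.7 ± 6.49 CPM in clone 2, 40.5 ± 3.92 CPM in clone 1 and 68.3 ± 6.84 CPM in wild type. It fell by 0.78 ± 0.15 log2 units in clone 2 (adjusted p 0.00816, edgeR), whichever library was left out, and by 0.75 ± 0.15 in clone 1 (adjusted p 0.0100), which did not hold without clone 1 replicate 1 (0.0518) and with a GC and length correction (0.0958). COL17A1, the transmembrane collagen of hemidesmosomes, averaged 13.8 ± 1.29 CPM in clone 2, 8.26 ± 3.06 CPM in clone 1 and 5.70 ± 2.14 CPM in wild type. It rose by 1.28 ± 0.30 in clone 2 (adjusted p 0.0234), which did not hold without wild-type replicates 1 or 2 (0.0512 and 0.111) or clone 2 replicate 3 (0.0841). NID2, nidogen-2, which links laminin to type IV collagen, rested on 10 counts in clone 2, 75 in clone 1 and 44 in wild type, and was lower in clone 2 than in clone 1 (log2 −2.86 ± 0.91, adjusted p 0.0236), which did not hold without clone 1 replicates 1 or 2 (0.0841 and 0.0754) or clone 2 replicates 1 or 3 (0.0545 and 0.0902). NTN4, a netrin that binds laminin gamma chains, was named after its values were seen; it averaged 24.3 ± 1.98 CPM in clone 2, 21.5 ± 1.73 CPM in clone 1 and 32.4 ± 5.73 CPM in wild type. NTN4 fell by 0.59 ± 0.16 in clone 1 (adjusted p 0.0428), which did not hold without wild-type replicates 2 or 3 (0.201 and 0.136), clone 1 replicates 1, 2 or 3 (0.138, 0.110 and 0.134) or clone 2 replicate 2 (0.0653) and with RLE size factors (0.0540) or a GC and length correction (0.0833). Fibroblast markers, in part collagens of the matrix too, also summed to less in clone 2 than in wild type, as given above, and their part in the collagen results was not tested.

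**Figure D4:**
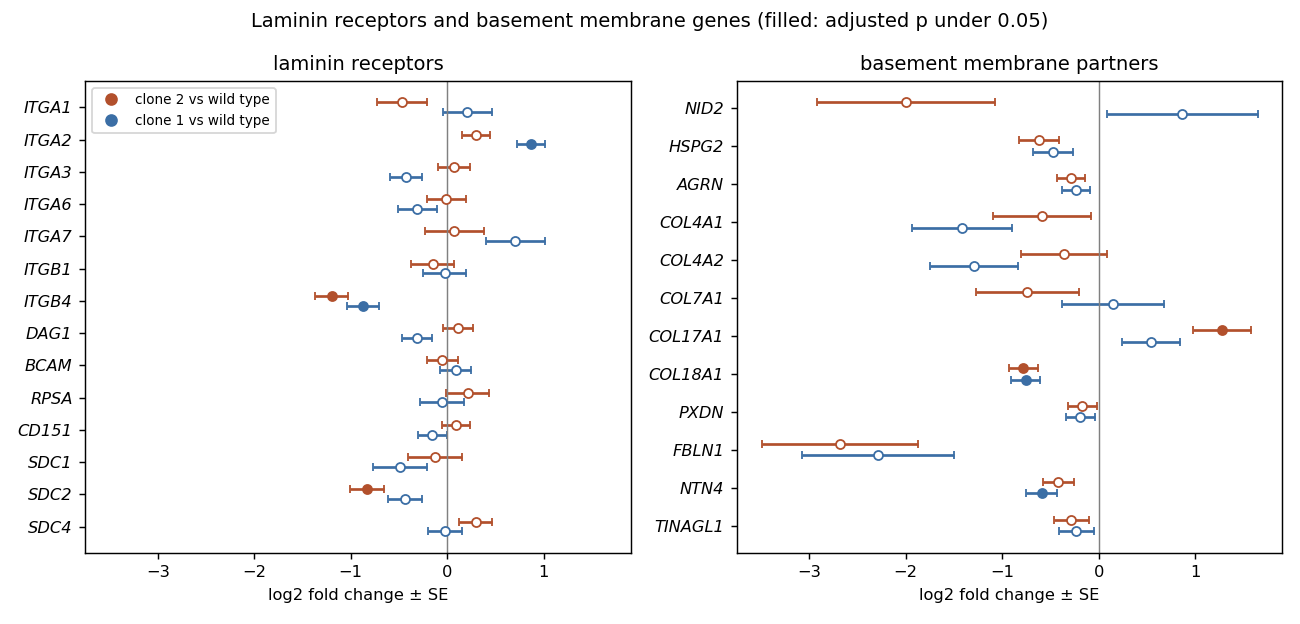
Log2 fold change with its SE (horizontal axes) of laminin receptor genes (left) and basement membrane genes (right) in clone 2 and clone 1 against wild type; filled points have an adjusted p under 0.05 (edgeR), and COL4A5 and COL4A6, at 0 counts in clone 2, are not drawn. ITGB4 lies at −1.20 and −0.87 and COL18A1 at −0.78 and −0.75 in clone 2 and clone 1.

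Of 6 hemidesmosome genes, 1 was higher and 1 lower in clone 2 against wild type (COL17A1 and ITGB4), 0 were higher and 1 lower in clone 1 against wild type (ITGB4), and 0 were higher and 1 lower in clone 2 against clone 1 (PLEC). Set against the 5.96%, 5.51% and 33.9% of all tested genes called, 1 of 6 between the clones lies below the background. The list's median log2 change was 0.08, 0.15 and −0.04, beside 0.001, −0.016 and −0.008 over all tested genes. In clone 2 against wild type, COL17A1 was called higher and ITGB4 lower, and the other 4 genes of this list were not called. Of the laminin members, which are outside this list, LAMB3 was called higher and LAMA3 lower. The calls of LAMB3, LAMA3 and COL17A1 were each lost on leaving out single libraries, as given above. PLEC, plectin, which ties hemidesmosomes to keratin filaments, averaged 2558 ± 206 CPM in clone 2, 3811 ± 523 CPM in clone 1 and 2393 ± 392 CPM in wild type. PLEC was lower in clone 2 than in clone 1 by 0.57 ± 0.20 log2 units (adjusted p 0.0337, edgeR), which did not hold without clone 1 replicates 1 or 3 (0.132 and 0.0984) or clone 2 replicate 3 (0.0907). In clone 1 against wild type its log2 change of 0.67 ± 0.20 did not pass (adjusted p 0.0582). It passed with DESeq2 (0.000781), no filter (0.0132), limma-voom (0.0387), the replicate block (0.0136), a GC and length correction (0.0325; 0.000984 with the block too) and a fit of only those 6 libraries (0.0211), and without wild-type replicate 1 (0.0491) or clone 2 replicates 1 or 3 (0.0182 and 0.0480).

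The 13 genes that build the laminin-binding sugar chain of dystroglycan showed 0 calls in either clone against wild type by edgeR, with 2 at an unadjusted p under 0.05 in clone 2 and 0 in clone 1. Between the clones 1 was higher in clone 2, POMK, the kinase that phosphorylates a mannose of that chain. It averaged 11.6 ± 2.00 CPM in clone 2, 6.62 ± 1.30 CPM in clone 1 and 7.92 ± 0.229 CPM in wild type (log2 0.81 ± 0.22 between the clones, adjusted p 0.0110), which did not hold without clone 1 replicate 2 (0.0694) or clone 2 replicate 3 (0.0572). The list's median log2 change was −0.09 in clone 2 and 0.03 in clone 1 against wild type and −0.11 between the clones, beside 0.001, −0.016 and −0.008 over all tested genes. The 1 of 13 called between the clones lies below the 33.9% of all tested genes. Against wild type, 5.96% of all tested genes were called in clone 2 and 5.51% in clone 1. Beside these shares, 0 of 13 is no result about the list.

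Of 11 genes for enzymes that cut laminin chains, 6 were tested, and BMP1 was the one called: it was lower in clone 2 against wild type and in clone 2 against clone 1, and 0 were called in clone 1 against wild type, with 0 at an unadjusted p under 0.05. BMP1, the tolloid proteinase that trims laminin chains after secretion, averaged 20.4 ± 4.57 CPM in clone 2, 31.1 ± 3.52 CPM in clone 1 and 34.9 ± 8.68 CPM in wild type. It fell by 0.77 ± 0.20 log2 units in clone 2 against wild type (adjusted p 0.0343, edgeR), which did not hold without wild-type replicates 1 or 2 (0.154 and 0.107) or clone 2 replicate 3 (0.153) and in a fit of only those 6 libraries (0.0768). Against clone 1 it was lower by 0.61 ± 0.20 (adjusted p 0.0287), which did not hold without clone 1 replicates 1 or 3 (0.106 and 0.0523) or clone 2 replicate 3 (0.116). The list's median log2 change was −0.55 in clone 2 and −0.02 in clone 1 against wild type and −0.33 between the clones, beside 0.001, −0.016 and −0.008 over all tested genes. Of all tested genes, 5.96% were called in clone 2 against wild type, 5.51% in clone 1 against wild type and 33.9% between the clones. The 0 of 6 in clone 1 is thus no result about the list, and 1 of 6 between the clones lies below the background.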

How the data were processed

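RNA sequencing counts of 9 libraries in 3 groups were used. The submitters' processing notes list Subread, featureCounts, STAR and DESeq2 and the genome build GRCh38, but no versions or roles. Deposited values are raw read counts for each gene, in 2 tables that repeat the wild-type libraries; those columns were identical (3 of 3) and entered once. How strand was set and which annotation was used is not given in the sources used here.

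Counts were tested with edgeR 4.0.16 in R 4.3.3: TMM scaling, filterByExpr with a minimum count of 10 (16921 of 31961 genes with a count), then robust quasi-likelihood tests from one model of the 3 groups (9 libraries), two-sided, with Benjamini-Hochberg adjustment over all tested genes and calls under 0.05. The biological coefficient of variation was 20.3%. CPM used TMM-scaled library sizes, and RPKM the exon length in the tables. On simulated counts for clone 1 against wild type over 16921 genes, 55.2% of 96 genes changed 2-fold and 96.9% of 98 changed 4-fold were recovered. Every simulated gene had the same spread. The SD of LAMA5 was 56.6% of its mean in clone 2, 24.6% in clone 1 and 46.1% in wild type. These recovery rates therefore do not describe genes as variable as LAMA5. No libraries agreed within sampling noise (chi-square per gene 17.5 to 62.3).

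The members and lists were chosen with earlier results of these data known. The text names all 8 members, JAG1, up to 5 called genes per list with the smallest adjusted p, and the 3 genes most correlated with each called member. Results that need items withheld for evaluation are not reported here. All list genes were matched by symbol or RefSeq synonym. Promoter windows came from RefSeq (GRCh38.p14), with 7 of 8 members matched.

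Deviations from the group means correlated at 0.599, 0.570 and 0.564 between clone 2 and wild-type libraries of the same number. Those numbers were taken as pairs in the replicate block alone, though no label says what a number marks. The main tests had no block. Alternatives were RLE size factors, no filter, DESeq2 1.42.0, limma-voom (limma 3.58.1), a test against 1.5-fold (glmTreat), the replicate block, a fit restricted to the groups compared, and omission of single libraries; a GC and length correction (87.3% of tested genes have a GC content) and the LAMA3 downstream length were added after seeing the data.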

Additional observations from a re-analysis of the deposited data

Results flagged for a closer look

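LAMA3 is listed for a closer look because the test of the difference between the clones' changes passed: clone 2 minus clone 1 was −1.33 log2 units (adjusted p 0.000122, edgeR), with a lower level in clone 2 and a higher one in clone 1 than in wild type. LAMB2 is listed by the same test, at −0.67 (adjusted p 0.0146), with 147 ± 36.8 CPM in clone 2, 234 ± 24.9 CPM in clone 1 and 222 ± 49.5 CPM in wild type (SD, n = 3). Of all tested genes, 33.9% were called between the clones.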

How the results depend on the processing

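Of all tested genes, 1008 were called in clone 2 against wild type, 933 in clone 1 against wild type and 5733 in clone 2 against clone 1. With the replicate block these counts were 2699 and 2322 in the 2 comparisons with wild type; in clone 1 the numbers do not pair the libraries (same-number correlations 0.506, 0.167 and −0.247), nor between the clones (0.431, −0.009 and 0.046), where the block called LAMA5 (adjusted p 4.68e-05). In clone 2 against wild type the block changed the call of no named gene other than LAMA4 and LAMB2. With GC and length correction and the block they were 2716 and 2153, with no filter 1663 and 1512, and against 1.5-fold 123, 115 and 983. In clone 2 against wild type DESeq2 called 1653 and a fit of only the 6 libraries compared 416. Leaving out 1 library gave 237 to 1584 in clone 2 against wild type (237 without clone 2 replicate 3, 598 without clone 1 replicate 2, and 297, 238 and 1584 without wild-type replicates 1, 2 and 3), 200 to 1301 in clone 1 against wild type (383, 330 and 200 without clone 1 replicates 1, 2 and 3, 436 and 278 without wild-type replicates 2 and 3) and 3639 to 5782 between the clones (3639 without clone 2 replicate 3, 3778 without clone 1 replicate 3).

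Members called in clone 2 against wild type numbered 5 with DESeq2, with the block and with the block and the correction, and 1 against 1.5-fold (LAMA5); in clone 1 against wild type 0, and between the clones 1 (LAMA3), passed 1.5-fold. Leaving out 1 library gave 1 to 4 members in clone 2, 0 to 4 in clone 1 and 1 to 3 between the clones. Members above 0 in clone 2 against wild type numbered 2, but 1 with RLE, no filter, DESeq2, the correction with or without the block, and 1 to 2 on leaving out a library, since LAMB1 lay at 0.01: it was −0.007 with RLE, −0.0258 with no filter, −0.0054 with DESeq2, −0.0892 with the correction, −0.0937 with the block too, and −0.11 to 0.0632 on leaving out a library. LAMB3 between the clones was −0.0489 with the correction and −0.0646 with the block too. Uncalled values that changed sign on leaving out a library ran from −0.0113 to 0.16 (LAMB1) and −0.0727 to 0.24 (LAMB2) in clone 1, −0.03 to 0.16 (ITGA3; −0.0119 with correction and block) and −0.0141 to 0.24 (PLEC) in clone 2 against wild type, and −0.11 to 0.84 (LAMA1), −2e-04 to 0.17 (LAMB3) and −0.17 to 0.0292 (COL18A1) between the clones. The cause was not tested. The LAMA3 share of the alpha level in clone 1 was 78.6% over all laminin alpha genes. With the downstream length for LAMA3 and exon lengths for the other genes, LAMA3 shares were 86.0, 90.5 and 64.3%. The LAMA5 shares were then 7.62 and 29.96% in clone 1 and wild type. Low counts limit LAMA1 and LAMA4.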
